A study of Mus musculus with 16 samples.

Results

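The genes described here are the Zfp zinc finger genes. They are the 146 genes of the deposited table, of 6288 in all, whose Ensembl identifier maps to a mouse symbol made of Zfp followed by digits only. Of 148 such symbols in the table, Zfp36, which encodes an RNA-binding protein with another kind of zinc finger, and Zfp622 were left out. Of the 146, 144 are annotated as protein coding and 2, Zfp125 and Zfp939, as transcribed pseudogenes. A low-count filter left 143 genes for testing. It left out Zfp82, Zfp941 and Zfp990, which had 2, 41 and 41 reads over the 4 Tet2-deficient air libraries and 24, 2 and 7 reads over the 4 WT air libraries. In physioxia they had 1, 44 and 21 reads in Tet2-deficient and 25, 29 and 17 reads in WT libraries.

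RNA was measured by bulk sequencing. The CD45-positive cells came from mouse bone marrow after enrichment of LSK cells (no lineage markers, with Kit and Sca1), the population of blood stem cells and early progenitors. Donors were Tet2-deficient (Tet2-/-) and wild-type (WT) mice of 3 to 4 months and both sexes, and every sample carries the strain label C57Bl/6J. All marrow was collected and enriched at 3% oxygen, and the enriched cells then either stayed there (physioxia) or spent 6 hours in ambient air of about 21% oxygen before lysis. The 4 groups of 4 replicates are Tet2-deficient physioxia, Tet2-deficient air, WT physioxia and WT air. The kind of Tet2 allele, and whether a replicate was 1 mouse or a pool, are not given in the sources used here.

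Most Zfp genes encode proteins with tandem C2H2 zinc fingers, in which each finger holds a zinc ion between a pair of cysteines and a pair of histidines and contacts a few bases of DNA. Many also carry a KRAB box, a domain that recruits the corepressor Trim28 (KAP1) and, through it, the histone methyltransferase Setdb1, heterochromatin proteins and DNA methylation, mostly at transposable elements. KRAB zinc finger genes lie in clusters of recent duplicates that differ between species and between mouse strains. Tet2 oxidises methylated cytosine in CpG dinucleotides, and its loss expands the stem and progenitor compartment of the marrow.

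Library depth within the table was 7.77 to 15.7 M reads, of which Zfp genes took 0.399% to 0.557%. The sources used here do not say by what rule the table's genes were selected. For 97.89% of the genes tested, and for 97.9% of the Zfp genes tested, the smallest unadjusted DESeq2 p over the 4 pairwise comparisons was under 0.05, so shares of called genes describe genes that mostly differ somewhere in this design. Tet2 itself had 506 to 626 normalised counts in Tet2-deficient air libraries against 650 to 993 in WT air, and 447 to 530 against 592 to 812 in physioxia. Reads over the whole gene include exons outside any deleted stretch, so they check the labels only in part. Of 8 LSK and general haematopoietic markers, Kit, Procr, Hlf and Mllt3 were measured in every library, and Ly6a, Ptprc, Flt3 and Mecom were not analysed here. Of 15 erythroid markers all 15 were measured, with sums of 123700 to 359800 normalised counts in Tet2-deficient air (359800 and 169200 in replicates 3 and 4) and 35680 to 55630 in WT air. The sum of 5 basophil and mast cell markers was 11450 to 19150 against 47610 to 87280, that of 9 of 10 T and NK cell markers 17760 to 25860 against 29620 to 33710, and that of 5 of 8 monocyte markers 8729 to 9226 against 14310 to 26140. The sum of 7 of 8 neutrophil markers was 559 to 1417 against 2083 to 10680, and 6 B cell markers were not analysed here. None of these measured markers was at 0 in any library. In bulk RNA, fewer cells of a type and less RNA per cell cannot be told apart, and the part of cell makeup in the differences given next was not tested.

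The Zfp genes were well represented in the table. It held 39.7% of the 363 annotated protein-coding Zfp genes, against 24.7% of the 21951 annotated protein-coding genes. The encoded proteins held 1 to 34 matches to the C2H2 pattern (CX2-4CX12HX2-6H), with a median of 12. Zfp326, which acts in transcription and splicing, had 1 match and Zfp462 had 34. A KRAB A box matched in 86 of the 144 proteins (59.7%), close to its share of 56.2% among all annotated Zfp genes. The 41 genes on chromosome 7, the 24 on chromosome 17 and the 16 on chromosome 13 made up most of the group, and 72 of the 146 had at least 5 other annotated Zfp genes within 1 Mb.

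Levels between genes are compared per kb of exon. On that scale Zfp869, a KRAB protein gene, led with a mean over all libraries of 1293 normalised counts per kb, followed by Zfp212 at 766, Zfp655 at 611, Zfp472 at 490.0 and Zfp281, a regulator of pluripotency, at 446. All 5 leading genes were called lower in Tet2-deficient than in WT air. Their mean normalised counts were above 500, and 1270 of all 2954 tested genes at 500 or more were also called lower. The call of Zfp281 was lost without Tet2-deficient air replicates 3 and 4 and without WT air replicates 1 and 2. It was also lost with annotated genes outside the table counted as unchanged.

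In air, 80 of the 143 tested Zfp genes were higher and 41 lower in Tet2-deficient than in WT cells (limma, adjusted p under 0.05 over all 6110 tested genes). These 121 genes are 84.6% of those tested. Among all tested genes 79.5% were called, 42.1% higher and 37.4% lower, so the share of Zfp genes called lay near that of all genes. The median log2 difference (Tet2-deficient minus WT) was 0.56 over the Zfp genes and 0.24 over all tested genes. After quantile normalization, 46 Zfp genes were higher and 47 lower, their median was 0.33 and that of all tested genes was 0.12. Of all tested genes 1984 were then higher and 2303 lower. The 2 genotypes did not overlap in 112 of the 143 genes, against 70.6% of all tested genes. The count of 121 was 69 without Tet2-deficient air replicates 3 and 4, 78 without WT air replicates 1 and 2, and 59 when every annotated gene outside the table was counted as unchanged. The count over all tested genes, 4858, fell alongside, to 2760, 3324 and 2436 in the same order.

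The genes lower in Tet2-deficient cells held the widest differences. Zfp125, a pseudogene (ENSMUSG00000069755, GRCm38 chromosome 12, 20877084 to 20921262), had normalised counts of 1.64, 0, 0 and 1.69 in Tet2-deficient air, in replicate order, against 187, 73.5, 92.5 and 44 in WT air. In physioxia it had 1.18, 1.08, 1.36 and 0 against 157, 150.3, 131 and 119. It was thus near 0 in all 8 Tet2-deficient libraries and present in all 8 WT libraries. Summed over libraries it had 4 reads against 398 in air, a scaled WT to Tet2-deficient ratio of 114 with a 95% counting interval of 44 to 419. In physioxia it had 3 reads against 570, a ratio of 169 with an interval of 57.5 to 821. The intervals cover counting error only. Of its 50-base stretches 31.8% also occur in other transcripts, mostly 3110053B16Rik, with which its exons overlap by 18.0%.

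Zfp429, a KRAB protein gene with 10 finger matches (ENSMUSG00000078994, chromosome 13, 67387905 to 67399819), had 9.0, 9.55, 8.01 and 8.46 normalised counts in Tet2-deficient air against 169, 124, 129.9 and 122 in WT air. It had 3.54, 5.40, 4.08 and 7.74 in Tet2-deficient physioxia against 95.6, 103, 102 and 124 in WT physioxia. The highest Tet2-deficient value was thus far under the lowest WT value in both oxygen conditions. The log2 differences were −3.81 ± 0.24, adjusted p = 7.03e-09, in air and −4.15 ± 0.24, adjusted p = 2.74e-09, in physioxia (± SE of the limma fit, as for all log2 differences given here). A share of 25% of its 50-base stretches recurs in other genes, mainly its neighbour Rsl1, so reads may be divided between them. Zfp146, which encodes a protein made almost wholly of fingers (ENSMUSG00000037029, chromosome 7, 30161269 to 30169750), had 69.6, 94.6, 71.1 and 90.6 against 319, 379, 621 and 361 in air (−2.32 ± 0.22, adjusted p = 7.71e-07). Its values in physioxia were 76.8, 99.4, 59.8 and 77.4 against 343, 245, 303 and 369 (−2.0 ± 0.22, adjusted p = 3.72e-06). WT air replicate 3 was its highest library, and the genotypes did not overlap in either oxygen condition.

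Promoters are shown for the 2 named genes of each direction that differed most in air and had an entry, because Tet2 acts on methylated CpG dinucleotides. CpGs stand in capitals. The sequences are RefSeq's (GRCm38.p6), from 250 bases before to 50 bases after the RefSeq start of the gene, 5′ to 3′ on the gene's strand. The first pair was lower in Tet2-deficient cells (Zfp429, chr13:67399718-67400017, minus strand, and Zfp146, chr7:30169692-30169991, minus strand). The second pair was higher (Zfp229, chr17:21733474-21733773, plus strand, and Zfp239, chr6:117861774-117862073, plus strand).
Zfp429: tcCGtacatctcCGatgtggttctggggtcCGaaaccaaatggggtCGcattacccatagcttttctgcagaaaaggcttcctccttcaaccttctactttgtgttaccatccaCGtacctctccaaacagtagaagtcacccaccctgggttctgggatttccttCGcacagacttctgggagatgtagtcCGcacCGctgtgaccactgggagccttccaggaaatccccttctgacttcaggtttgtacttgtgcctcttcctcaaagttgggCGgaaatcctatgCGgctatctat
Zfp146: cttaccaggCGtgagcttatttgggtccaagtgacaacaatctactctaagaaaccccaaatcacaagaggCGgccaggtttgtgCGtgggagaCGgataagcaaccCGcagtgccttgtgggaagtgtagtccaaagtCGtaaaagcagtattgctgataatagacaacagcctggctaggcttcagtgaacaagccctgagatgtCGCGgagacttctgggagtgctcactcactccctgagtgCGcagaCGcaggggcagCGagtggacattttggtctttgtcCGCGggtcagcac
Zfp229: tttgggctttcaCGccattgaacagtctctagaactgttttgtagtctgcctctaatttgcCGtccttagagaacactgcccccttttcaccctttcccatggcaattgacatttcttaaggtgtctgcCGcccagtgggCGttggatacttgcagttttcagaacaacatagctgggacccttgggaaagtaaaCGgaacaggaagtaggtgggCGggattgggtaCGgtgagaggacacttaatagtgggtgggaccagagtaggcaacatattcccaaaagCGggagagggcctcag
Zfp239: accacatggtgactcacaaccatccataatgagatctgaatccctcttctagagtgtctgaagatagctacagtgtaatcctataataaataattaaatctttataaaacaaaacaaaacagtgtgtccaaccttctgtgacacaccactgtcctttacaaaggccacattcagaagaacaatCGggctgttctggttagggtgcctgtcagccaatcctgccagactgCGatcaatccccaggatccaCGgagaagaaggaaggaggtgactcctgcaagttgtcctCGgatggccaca

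The 4 windows held 10, 13, 8 and 4 CpGs. Over the 120 Zfp genes with a RefSeq promoter the median was 13, against 7 over all 32851 promoters of the table. Genes higher in Tet2-deficient air had a median of 12 CpGs (63 genes) and those lower one of 14.5 (36 genes), while those not past the test had 16 (19 genes). An ETS core motif (CCGGAAG, either strand, which itself holds a CpG) stood in 23 of the 120 windows (19.2%) and in 8.9% of all promoters of the RefSeq set. These are counts of letters, and methylation was not analysed here.

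Among the other named genes lower in air were Zfp869 (ENSMUSG00000054648, chromosome 8, 69706332 to 69710724), Zfp382, Zfp995, Zfp658 and Zfp51. Zfp869 had 1410.1, 1462, 1057 and 1173 in Tet2-deficient air against 2516, 2419, 2812 and 3139.9 in WT air (−1.10 ± 0.12, adjusted p = 2.92e-06). The highest Tet2-deficient library was thus far under the lowest WT library. Zfp382, whose human counterpart is a KRAB repressor, averaged 49.8 ± 19.3 against 143 ± 28.8 (mean ± SD over 4 libraries per group, here and in later averages; −1.60 ± 0.28, adjusted p = 0.000259). Zfp995 averaged 78.3 ± 12.7 against 191 ± 23.6 (−1.29 ± 0.23), and Zfp658, whose human counterpart is linked to the zinc response, 40.9 ± 7.99 against 94.1 ± 31.4 (−1.14 ± 0.31). Zfp51 stood at 615 ± 113 against 1219.7 ± 67.5 (−1.0 ± 0.15). Without Tet2-deficient air replicates 3 and 4, Zfp658 did not pass in air. In physioxia the named genes that were lower were Zfp125, Zfp429, Zfp146, Zfp658, Zfp382, Zfp869, Zfp472 and Zfp995, so 7 of these 8 were also among the 8 named in air. Zfp472, the exception, stood at 839 ± 136 against 1682 ± 346 in physioxia (−0.99 ± 0.15, adjusted p = 6.38e-05).

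**Figure D1:**
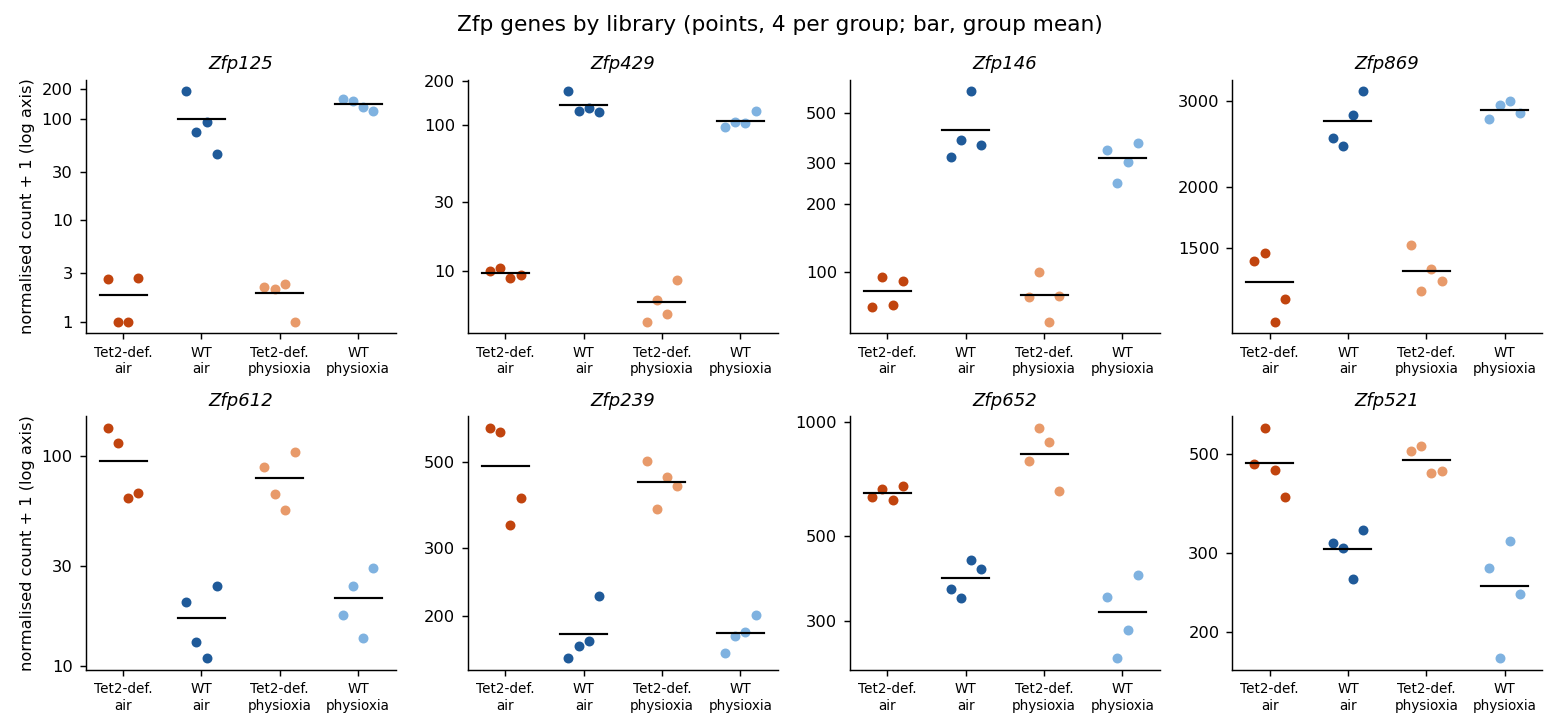
Normalised count plus 1 (log axis, a scale per panel) of 8 Zfp genes in each library, by group. Points are libraries (4 per group) and bars are group means. The upper 4 genes lay lower in all Tet2-deficient libraries and the lower 4 lay higher, in air and in physioxia.

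The genes higher in Tet2-deficient cells were the larger group in air, except after quantile normalization. Zfp612, a KRAB protein gene with 16 finger matches (chromosome 8, 110079746 to 110092741), had the widest difference of the named genes in this direction in air, with 135, 114, 62 and 66 against 19.2, 12.1, 9.91 and 23 (2.48 ± 0.35, adjusted p = 4.16e-05). All 4 Tet2-deficient libraries lay above all 4 WT libraries, and Tet2-deficient replicates 1 and 2 lay above replicates 3 and 4. In physioxia Zfp612 had 87.4, 64.8, 54.4 and 104 against 16.5, 23.1, 12.7 and 28.2 (1.91 ± 0.35, adjusted p = 0.000367). Zfp239, which encodes a short protein with 7 finger matches and no KRAB match (chromosome 6, 117862100 to 117873291), had 609.7, 596, 342 and 401 against 155, 166, 172 and 224 in air (1.41 ± 0.19, adjusted p = 2.35e-05). Zfp229, a KRAB protein gene (chromosome 17, 21730795 to 21769342), had 77.8, 92, 84.1 and 157 against 48.1, 45.3, 23.1 and 22 in air (1.57 ± 0.39, adjusted p = 0.00314). Replicate 4 was its highest Tet2-deficient library, and the groups did not overlap. The other named genes of this direction in air were Zfp248 (1.65 ± 0.32), Zfp763 (1.39 ± 0.21), Zfp953 (1.27 ± 0.32), Zfp808 (1.15 ± 0.22) and Zfp2 (1.2 ± 0.27). Zfp808 shares 28.2% of its 50-base stretches with other genes, mainly Zfp934. Zfp953 did not pass without Tet2-deficient air replicates 3 and 4.

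In physioxia, 73 Zfp genes were higher and 32 lower in Tet2-deficient cells, 105 of 143 or 73.4%. Of all tested genes 69.4% were called in that comparison, 35.9% higher and 33.6% lower. The median log2 difference was 0.55 over the Zfp genes and 0.06 over all tested genes, and the genotypes did not overlap in 97 Zfp genes, against 57.6% of all tested genes. The erythroid marker sum was 116600 to 323500 in Tet2-deficient physioxia against 43190 to 75780 in WT physioxia, and its part in these differences was not tested. Of the genes named as higher in physioxia, Zfp229 stood at 109 ± 38.6 against 25.1 ± 15 (2.16 ± 0.39, adjusted p = 0.000339), and Zfp248 at 106 ± 9.99 against 37.1 ± 16.1 (1.60 ± 0.32, adjusted p = 0.000767). Zfp948 and Zfp760, KRAB protein genes of the same chromosome 17 cluster as Zfp229, differed by 1.54 ± 0.23 and 1.32 ± 0.26. Zfp652, whose human counterpart binds the corepressor CBFA2T3, had 789, 962, 885 and 655 in Tet2-deficient physioxia against 345, 238, 283 and 394 in WT physioxia (1.40 ± 0.16, adjusted p = 4.69e-06). Its lowest Tet2-deficient library lay well above its highest WT library. Its exons overlap those of Abi3 and other genes over 20% of their length. Zfp930 (1.37 ± 0.28), Zfp629 (1.34 ± 0.32) and Zfp808 (1.31 ± 0.22) completed the named genes.

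The direction was shared between the 2 oxygen conditions, which have no library in common. Of the 143 Zfp genes, 64 (44.8%) were called higher in both conditions and 27 (18.9%) lower in both, against 29.1% and 27.5% of all tested genes. The 64 are 80.0% of the Zfp genes called higher in air and 87.7% of those in physioxia, against 68.9% and 81% among all genes called higher. The 27 are 65.9% of the Zfp genes called lower in air and 84.4% of those in physioxia, against 73.7% and 82% among all genes called lower. No Zfp gene was called in opposite directions. The 8 genes called in neither were Zfp106, Zfp169, Zfp275, Zfp335, Zfp458, Zfp563, Zfp568 and Zfp850. Enriched cells were divided between the oxygen conditions per the labels, so the 2 comparisons may draw on the same animals.

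**Figure D2:**
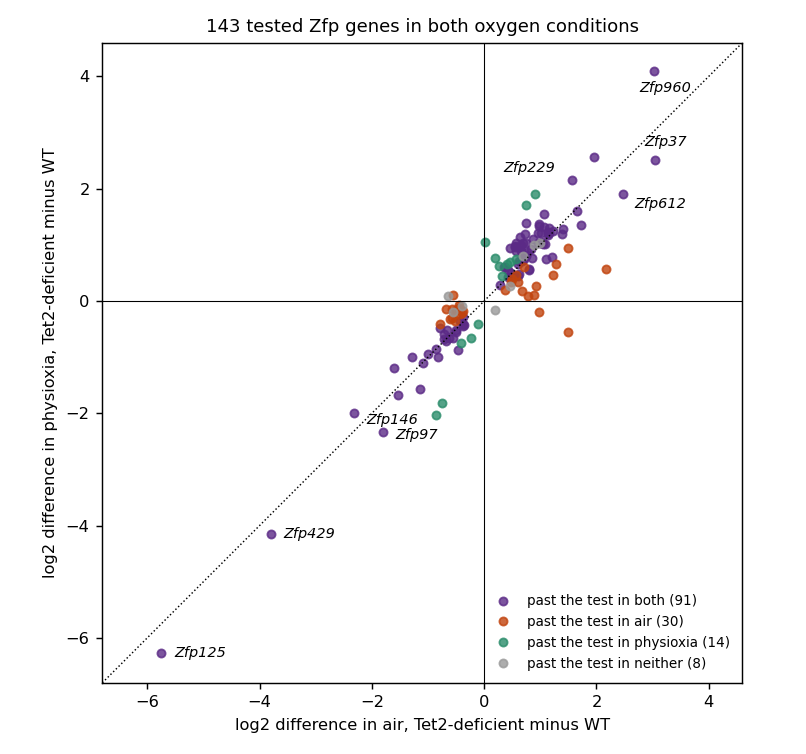
Log2 difference (Tet2-deficient minus WT) of the 143 tested Zfp genes in air (horizontal axis) and physioxia (vertical axis). Each point is a gene, coloured by where it passed the test, and the dotted line marks equal differences. The 91 genes past the test in both conditions lie in the lower left and upper right, with Zfp125 and Zfp429 farthest out.

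The split between higher and lower genes varied with level. With a mean normalised count, not per length, under 100 over all libraries, 28 of 44 Zfp genes were higher and 7 lower in Tet2-deficient air. Between 100 and 500, 40 of 58 were higher and 11 lower. At 500 or more, 12 of 41 were higher and 23 lower. All tested genes showed the same order, with 741 of 1565 higher and 509 lower in the first class, 767 of 1591 and 504 in the second, and 1067 of 2954 and 1270 in the third. Per kb of exon, the median level was 33.0 normalised counts in Zfp genes called higher and 89 in those called lower, against 77.5 and 169 among all genes called. The median log2 level of the Zfp genes was 7.61 to 7.69 in Tet2-deficient air libraries against 7.24 to 7.35 in WT air. The sum of their normalised counts lay the other way, at 54278 to 57455 against 57186 to 64297, and those ranges overlapped.

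The split also varied with the number of fingers. Of the genes with up to 5 finger matches, 7 of 19 were higher and 8 lower in air, with a median log2 difference of −0.11. With 6 to 10 matches 22 of 42 were higher and 17 lower, with 11 to 15 matches 29 of 43 and 7, and with 16 or more 22 of 37 and 7. The medians of these 3 classes were 0.46, 0.70 and 0.69. In physioxia the same classes, from fewest to most matches, held 7 higher and 6 lower, 17 and 13, 26 and 6, and 23 and 5. Genes with a KRAB match had a median of 0.62 in air (50 of 83 higher, 21 lower) and those without one 0.40 (30 of 58 higher, 18 lower). The differences between these classes were not tested. Zfp genes called lower in air had a median of 9 matches and a median mean count of 549. Those called higher had medians of 12 matches and 152 normalised counts. Whether finger number and level were related to each other, and their parts in the split, were not tested.

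**Figure D3:**
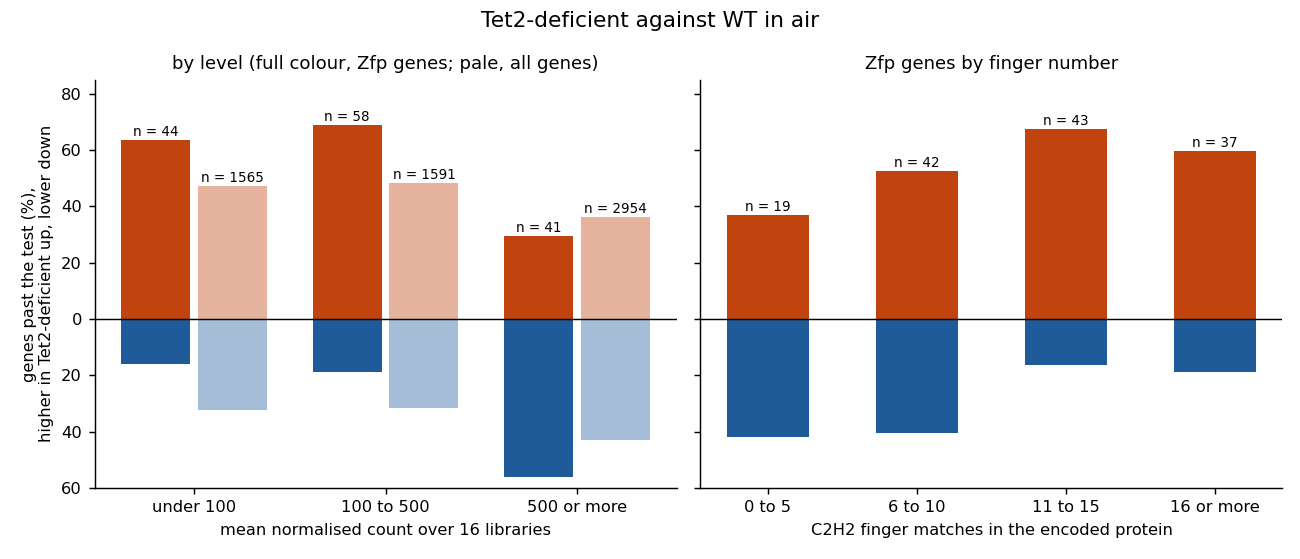
Share of genes past the test in air, in percent, with genes higher in Tet2-deficient cells drawn upward and genes lower drawn downward. The left panel sets Zfp genes (full colour) beside all tested genes (pale) in 3 classes of mean normalised count, and the right panel shows Zfp genes in 4 classes of C2H2 matches. The upward share is smallest, at 12 of 41 genes, for Zfp genes with a mean of 500 or more.

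Neighbouring Zfp genes did not all move together. Runs of Zfp genes no more than 500 kb apart, with at least 4 measured, were counted. For comparison, 80 of the 143 tested Zfp genes were higher in air and 73 in physioxia. Among all tested genes the shares were 42.1% and 35.9%. Whether any run differed from these shares was not tested. In the run on chromosome 17 from 21008903 to 23599487, with 13 of 23 annotated Zfp genes measured, 11 were higher in air and 2, Zfp51 and Zfp995, were lower. In physioxia 9 were higher and 2 lower. In the other run on that chromosome, from 32765496 to 33631779, 3 of 6 were higher and 2 lower, in air and in physioxia. On chromosome 7 from 24081924 to 25227507, 5 of 6 measured genes were higher in air and all 6 in physioxia (Zfp93, Zfp94, Zfp109, Zfp111, Zfp114 and Zfp526). From 127233061 to 127885996 on the same chromosome, 6 of 7 were higher and 1 lower in air, and 4 and 0 in physioxia. From 27731389 to 28014115, 1 of 4 was higher and 0 lower in air, and 2 and 1 in physioxia. From 42473386 to 43618285, 1 of 4 was higher and 2 lower, in air and in physioxia. In the run from 29768552 to 30169750, 5 of 9 tested genes were higher and 3 lower in air, and 4 and 2 in physioxia. It held Zfp146 and Zfp382, both lower in air (−2.32 ± 0.22 and −1.60 ± 0.28). Beside them lay Zfp260, which was higher (0.55 ± 0.14), and Zfp568, which did not pass (−0.39 ± 0.23, limma adjusted p = 0.118). On chromosome 13 from 66669928 to 67827002, 5 of 9 were higher and 2 lower in air, and 4 and 1 in physioxia. The measured neighbours Zfp953 (1.27 ± 0.32) and Zfp429 (−3.81 ± 0.24) lay on opposite sides in air. On chromosome 6 from 47819266 to 48623227, 1 of 4 was higher and 3 lower in air, and 1 and 1 in physioxia. Among those lower in air was Zfp212, which had 1981, 2075, 1900.5 and 1623 against 2624, 3003, 3499.6 and 3279 (−0.71 ± 0.15, limma adjusted p = 0.00126).

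Zfp97 and Zfp960 are neighbours on chromosome 17 (17121415 to 17146831 and 17064113 to 17089628, both on the plus strand) that share 81.3% and 82.7% of their 50-base stretches with other genes. They were chosen for their sequence, after their values were seen. Their coding sequences of 1638 bases are 98.2% identical, with 30 differing bases. The stretch from base 1225 to base 1344 of the coding sequence (GENCODE M21 transcripts) holds 18 of these differences, which stand in capitals.
Zfp97: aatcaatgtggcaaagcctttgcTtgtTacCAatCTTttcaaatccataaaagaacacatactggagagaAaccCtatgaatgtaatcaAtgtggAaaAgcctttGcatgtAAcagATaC
Zfp960: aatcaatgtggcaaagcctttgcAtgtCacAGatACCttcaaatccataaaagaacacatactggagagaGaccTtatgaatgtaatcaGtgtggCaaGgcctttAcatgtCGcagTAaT

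Reads counted to the pair lay on different members in the 2 genotypes. In air, Zfp960 had 29, 25, 12 and 21 reads in the Tet2-deficient libraries against 1, 4, 2 and 0 in the WT libraries. Zfp97 had 20, 10, 2 and 5 against 22, 33, 13 and 34. Zfp960 did not overlap between genotypes, and Zfp97 did only where Tet2-deficient replicate 1 reached into the WT range. Summed, Zfp97 had 37 reads over the Tet2-deficient libraries against 102 over the WT libraries, while Zfp960 had 87 against 7. In physioxia Zfp97 had 29 against 129, and Zfp960 had 84 against 3. Zfp960 thus held 70.2% of the pair's reads in Tet2-deficient air against 6.42% in WT air, and 74.3% against 2.27% in physioxia. The sum of the pair did not differ beyond the spread of the replicates, at 26.6 ± 11.2 normalised counts against 27.1 ± 9.5 in air (exact permutation test, two-sided, p = 0.943, n = 4 per group) and 30.7 ± 10.1 against 31.8 ± 9.4 in physioxia (exact permutation p = 0.8). The smallest p that this design allows is 0.0286, and at this spread the test cannot show that the sums are equal. Single-gene log2 differences were 3.02 ± 0.54 for Zfp960 and −1.80 ± 0.63 for Zfp97 in air. With so few differing bases, few reads can tell the genes apart, and these differences are uncertain. In all, 14 of the 146 Zfp genes share over 20% of their 50-base stretches with other genes.

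**Figure D4:**
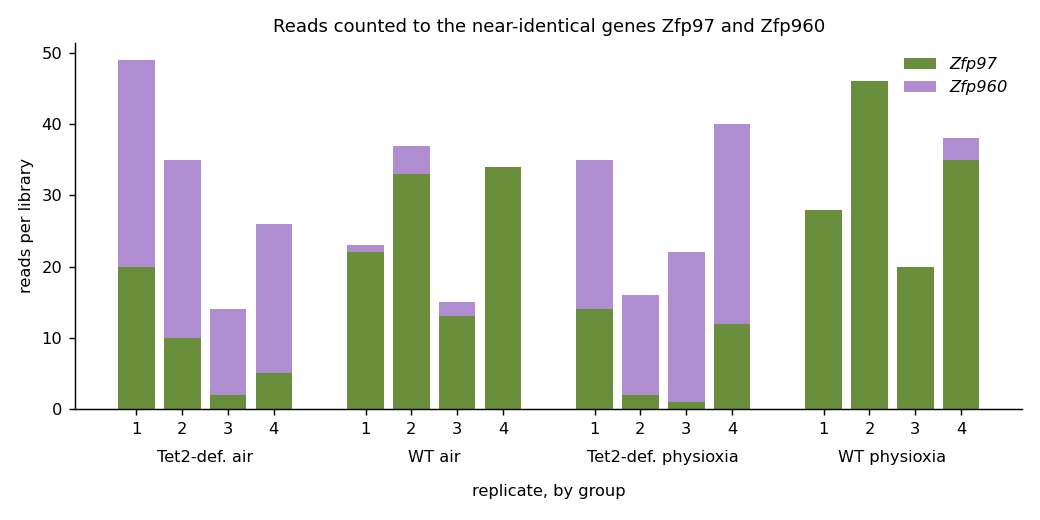
Reads counted to Zfp97 and Zfp960 in each library, stacked, by group. The total per library is alike in range between genotypes, while Zfp960 makes up 70.2% of the pair's reads in Tet2-deficient air against 6.42% in WT air.

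Zfp genes with known roles in blood, imprinting and retroelement control were measured too. Zfp521, a cofactor of haematopoietic stem and progenitor cells, had 475, 572, 461 and 400.4 in Tet2-deficient air against 315, 308, 261 and 337 in WT air (0.64 ± 0.17, adjusted p = 0.00484). In physioxia it had 507, 521, 454 and 457 against 277, 173, 319 and 242 (0.97 ± 0.17, adjusted p = 0.000271). It was higher in each Tet2-deficient library than in any WT library of the same oxygen condition. The sum of Kit, Procr, Hlf and Mllt3 was likewise higher in Tet2-deficient air, at 7794 to 9975 against 4826 to 5720, and the part of cell makeup in the difference of Zfp521 was not tested. Zfp809, a KRAB protein that initiates silencing of murine leukaemia virus-type proviruses, averaged 188 ± 33.6 against 128 ± 15.7 in air (0.55 ± 0.20, adjusted p = 0.0221) and 214 ± 61.7 against 106 ± 2.94 in physioxia (0.96 ± 0.20, adjusted p = 0.000891). Its call in air was lost after quantile normalization, and without Tet2-deficient air replicate 3, WT air replicate 3 or Tet2-deficient air replicates 3 and 4. Zfp57, which maintains DNA methylation at imprinted regions with Trim28, averaged 78.1 ± 29.6 against 47 ± 6.29 in air (0.64 ± 0.28, adjusted p = 0.0451) and 85.5 ± 20.1 against 37.6 ± 3.55 in physioxia (1.14 ± 0.28, adjusted p = 0.00262). The call in air was lost in 11 of 16 fits that leave out 1 library, and that in physioxia in none. Zfp445, which acts with Zfp57 at imprints and was named after its values were seen, stood at 1664 ± 63 against 1387 ± 146 in air (0.27 ± 0.13, adjusted p = 0.0698) and 1657 ± 230.4 against 1077 ± 179.8 in physioxia (0.63 ± 0.13, adjusted p = 0.00102). Zfp568, a repressor of a placental Igf2 transcript, passed in neither comparison.

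Other named Zfp genes went both ways. Zfp655, whose human counterpart binds the signalling protein VAV1, had 2521, 2613, 2039.6 and 2257 in Tet2-deficient air against 4170.0, 4076, 4129.5 and 4739 in WT air (−0.86 ± 0.10, adjusted p = 7.51e-06), and −0.85 ± 0.10 in physioxia. The groups were far apart in both conditions. Zfp131, a BTB-domain protein, averaged 790.4 ± 65 against 1246 ± 91.5 in air (−0.66 ± 0.12, adjusted p = 0.00033) and differed by −0.51 ± 0.12 in physioxia. Zfp263 averaged 1403 ± 95.1 against 1999.5 ± 189 in air (−0.51 ± 0.10, adjusted p = 0.000596) and differed by −0.55 ± 0.10 in physioxia. Zfp110, also called Nrif, which binds the p75 neurotrophin receptor, averaged 1074 ± 87.5 against 1379.7 ± 123 in air (−0.36 ± 0.10, adjusted p = 0.00536), a call not made without Tet2-deficient air replicates 3 and 4. Its close relative Zfp369, named after its values were seen, was higher instead, at 201 ± 23.3 against 137 ± 18.9 (0.56 ± 0.18, adjusted p = 0.0147). Zfp281 (−0.50 ± 0.17, adjusted p = 0.0153), Zfp384, which takes part in gene fusions of human B cell leukaemia (−0.53 ± 0.19, adjusted p = 0.0196), and Zfp91, a ubiquitin ligase (−0.37 ± 0.14, adjusted p = 0.0268), were lower in air and did not pass in physioxia (−0.15 ± 0.17, −0.36 ± 0.19 and −0.17 ± 0.14). None of these 3 genes passed in air without Tet2-deficient air replicates 3 and 4 or without WT air replicates 1 and 2. Leaving out 1 library ended the call of Zfp91 in 4 of 16 fits (without WT air replicate 1 or 2, or Tet2-deficient air replicate 3 or 4) and that of Zfp384 in 1 (without Tet2-deficient air replicate 1). Zfp639 was higher in air (0.43 ± 0.16, adjusted p = 0.0266) and in physioxia (0.43 ± 0.16, adjusted p = 0.026), and neither call held after quantile normalization. Each was also lost in 4 of 16 fits that leave out 1 library, in air without WT air replicate 1, 2 or 4 or Tet2-deficient air replicate 3, and in physioxia without WT physioxia replicate 3 or 4 or Tet2-deficient physioxia replicate 2 or 3. Zfp335 passed in neither (−0.65 ± 0.30, adjusted p = 0.0577, in air).

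Genes that work with KRAB zinc fingers were read from a list of corepressor and heterochromatin genes. The table held 12 of the 52 listed, and Trim28 and Setdb1 themselves were not analysed here. In air 5 were higher and 5 lower in Tet2-deficient cells, with a median of 0.32, and in physioxia 3 were higher and 1 lower. Morc2a, which acts with the HUSH complex, averaged 918 ± 279 against 462 ± 77.5 in air (0.95 ± 0.21, adjusted p = 0.00135). Fam208a, which encodes the HUSH subunit TASOR, averaged 270.5 ± 152 against 90.9 ± 33.7 (1.44 ± 0.35, adjusted p = 0.00259), and the DNA methyltransferase gene Dnmt3b 928 ± 178 against 511 ± 84 (0.85 ± 0.19, adjusted p = 0.00134). The deacetylase gene Hdac2 was also higher, at 1532 ± 1048 against 455 ± 102 (1.47 ± 0.42, adjusted p = 0.00735). In Hdac2, Fam208a and Morc2a, Tet2-deficient air replicates 3 and 4 lay above replicates 1 and 2. The genotypes overlapped in air in Fam208a, where Tet2-deficient replicate 2 lay under WT replicate 3. They also did in Hdac2, where Tet2-deficient replicate 1 lay under WT replicate 3, and did not in Morc2a. In WT cells, Hdac2 (2.18 ± 0.42, adjusted p = 0.0112), Fam208a (1.40 ± 0.35, adjusted p = 0.026) and the histone methyltransferase gene Suv39h2 (2.03 ± 0.56, adjusted p = 0.0413) were higher in physioxia than in air, 3 of 12 against 5.76% of all tested genes called. All 3 calls, and those of all tested genes, were lost without WT air replicates 1 and 2 and with annotated genes outside the table counted as unchanged. In the 16 fits that leave out 1 library, Hdac2 passed in each, Fam208a was lost in 5 (without WT air replicate 1, 2 or 4, or WT physioxia replicate 1 or 2) and Suv39h2 in 10. The call of Suv39h2 was also lost with the replicate number as a block. Gatad2b, a subunit of the NuRD complex, was lower in Tet2-deficient than in WT air, at 1197 ± 67.9 against 2248 ± 510.2 (−0.89 ± 0.18, adjusted p = 0.000795), as was Setdb2, a SET-domain protein gene (−0.57 ± 0.14, adjusted p = 0.00236). Between genotypes in physioxia, Morc2a and Dnmt3b passed (limma adjusted p = 0.0197 and 0.0327). Fam208a, Hdac2, Gatad2b and Setdb2 did not (adjusted p = 0.187, 0.597, 0.292 and 0.0772). Of 28 tested genes of other C2H2 families, among them Zbtb, Zscan and Zkscan genes, 13 were higher and 12 lower in air, with a median of 0.15. Of 30 tested genes of zinc finger families without C2H2 fingers (Zfyve, Zdhhc, Zc3h and Zcchc), 14 were higher and 12 lower, with a median of 0.30.

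Few Zfp genes were called between the oxygen conditions. Between WT physioxia and WT air, 3 of 143 were higher in physioxia and 0 lower, 2.1%, while 5.76% of all tested genes were called, 4.91% higher and 0.851% lower. An unadjusted p under 0.05 was reached by 21 Zfp genes (14.7%) and by 19.5% of all tested genes. Zfp654 (chromosome 16, 64780347 to 64851652), which has 5 finger matches, had 1189, 1608, 962 and 859 in WT physioxia against 277, 345, 534 and 350.1 in WT air (1.61 ± 0.28, adjusted p = 0.00955). Zfp12, a KRAB protein gene (chromosome 5, 143235163 to 143248834), had 255, 258, 265 and 210.0 against 80.7, 78.5, 143 and 70.8 (1.45 ± 0.33, adjusted p = 0.019). Zfp106, which encodes an RNA-binding protein (chromosome 2, 120506820 to 120563843), had 2919, 2580.5, 2832 and 3099 against 1185, 1406, 1982 and 1445 (0.95 ± 0.21, adjusted p = 0.0172). In each of the 3 genes all WT physioxia libraries lay above all WT air libraries, of which replicate 3 was the highest. Groups that did not overlap were seen in 8 tested Zfp genes, against 11.0% of all tested genes. None of the 3 calls held without WT air replicates 1 and 2, or with annotated genes outside the table counted as unchanged, and edgeR called 3 Zfp genes. DESeq2 called 7, of which 4 were higher and 3, Zfp84, Zfp445 and Zfp46, lower in physioxia. Of all tested genes edgeR called 334 and DESeq2 548. Leaving out 1 library moved the count of all genes called, 352, to between 128 and 554. Zfp12 and Zfp106 did not pass without WT air replicate 2, without WT air replicate 4 or without WT physioxia replicate 1, and Zfp12 did not without WT physioxia replicate 2. With the replicate number as a block within each genotype, Zfp771 passed as well (1.75 ± 0.55 in the fit without the block, adjusted p = 0.0358 with it). With no filter, Zfp941 also passed (2.60 ± 0.50, limma adjusted p = 0.0099). It had 2 reads over the WT air libraries and 29 over the WT physioxia libraries. Zfp106 shares 24.7% of its 50-base stretches, mainly with Gm26899.

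Between Tet2-deficient physioxia and Tet2-deficient air, limma called 0 Zfp genes and 0.0% of all tested genes. At an unadjusted p under 0.05 there were 8 Zfp genes (5.59%), against 4.58% of all tested genes. Of the Zfp genes edgeR and DESeq2 also called 0, while of all tested genes they called 0 and 8. Zfp654 had the smallest p, with 715, 694, 759.7 and 666 in Tet2-deficient physioxia against 259, 182, 403 and 500.3 in Tet2-deficient air (1.18 ± 0.28, adjusted p = 0.367). Its groups did not overlap. Zfp12 had 337, 322, 374 and 334 against 137, 110.3, 335 and 380.1 (0.70 ± 0.33, adjusted p = 1.0), and Zfp106 had 2192, 2676, 2635 and 2717 against 1352, 1129, 2165 and 2486 (0.59 ± 0.21, adjusted p = 0.964). In all 3 genes Tet2-deficient air replicates 1 and 2 were low, as WT air was, while replicates 3 and 4 were higher, and for Zfp12 and Zfp106 replicates 3 and 4 reached into the range of physioxia or close to it. Those 2 libraries also had the highest erythroid marker sums of their group, at 359800 and 169200 against 123800 and 123700 in replicates 1 and 2. In WT physioxia, where the 3 genes were above WT air, the sums were 43190 to 75780. The part of cell makeup in these values was not tested. Without Tet2-deficient air replicates 3 and 4, the 3 genes passed in Tet2-deficient cells, at 1.70 ± 0.26 (limma adjusted p = 0.0029) for Zfp654, 1.46 ± 0.25 (adjusted p = 0.0049) for Zfp12 and 1.04 ± 0.17 (adjusted p = 0.0043) for Zfp106. The libraries were chosen after their values were seen, so this is a description. Of all tested genes, 152 passed in that fit. Zfp429 (−0.70 ± 0.24) and Zfp974 (−1.16 ± 0.41) had the next smallest p among genes with a p under 0.05 and did not pass. Groups did not overlap in 7 Zfp genes, against 3.75% of all tested genes.

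**Figure D5:**
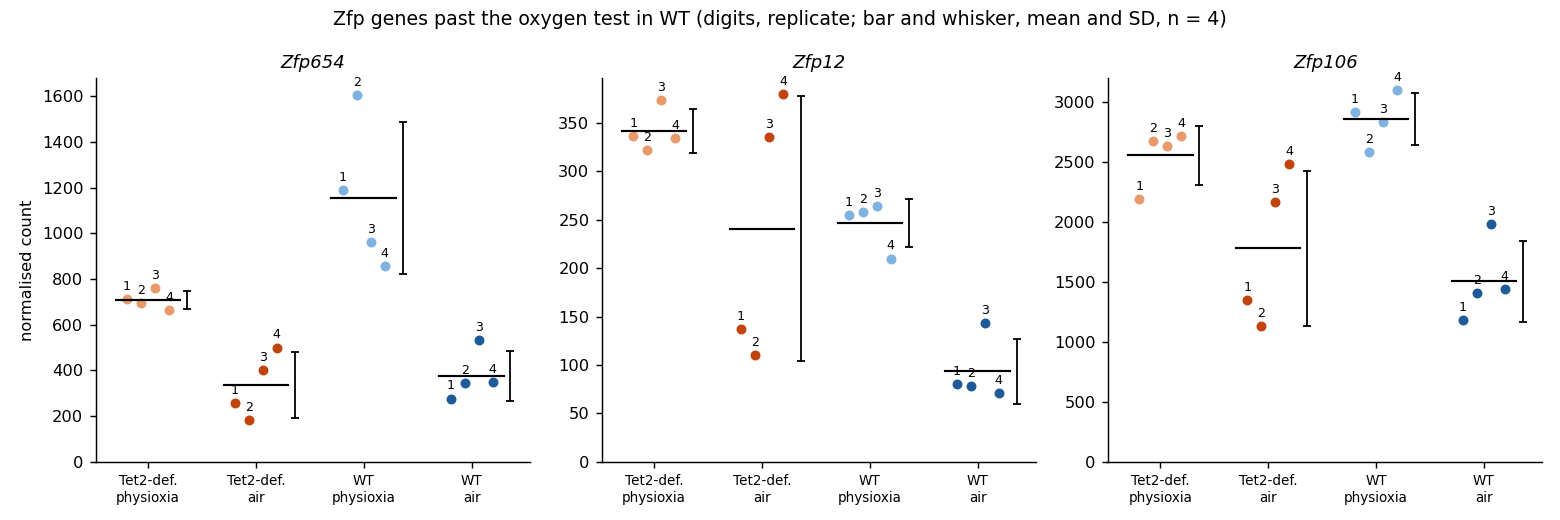
Normalised counts of Zfp654, Zfp12 and Zfp106 in each library, by group. Points are libraries with their replicate number, horizontal bars are means and whiskers are SD (n = 4). WT physioxia lies above WT air in every library, and Tet2-deficient air replicates 3 and 4 lie above replicates 1 and 2.

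The difference between the genotypes in their response to oxygen was tested as an interaction, and limma called 0 Zfp genes and 0.0% of all tested genes. An unadjusted p under 0.05 was reached by 8 Zfp genes (5.59%), against 8.94% of all tested genes. Of the Zfp genes edgeR and DESeq2 called 0, while of all tested genes they called 0 and 11. For the 3 genes past the test in WT, the interaction (response in Tet2-deficient minus response in WT) was −0.44 ± 0.39 for Zfp654, −0.75 ± 0.47 for Zfp12 and −0.36 ± 0.30 for Zfp106, so their responses were not shown to differ between genotypes. The smallest p belonged to Zfp318, which controls alternative processing of the IgM and IgD transcript in B cells. It had 94.5, 116, 130.5 and 96.3 in Tet2-deficient physioxia and 54.8, 104, 100.1 and 60.1 in Tet2-deficient air, against 61.4, 40.6, 44.8 and 63.2 in WT physioxia and 85.6, 66.4, 71.6 and 81.3 in WT air (1.04 ± 0.34, adjusted p = 0.552 for the interaction). On average it was highest in Tet2-deficient physioxia and lowest in WT physioxia, and the Tet2-deficient groups overlapped. Zfp652 (0.64 ± 0.22) and Zfp455 (−1.17 ± 0.43) followed and did not pass either.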

How the data were processed

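RNA from 16 libraries was sequenced in paired ends from a low-input kit. The tools were STAR, HTSeq, cutadapt, FastQC and DESeq2, and the build GRCm38, per the submitters' processing notes; versions and settings are not given in the sources used here. The deposited values are a signal, read counts per gene that the authors divided by a size factor per library (normalised counts), per the file headers and labels. All values (100%) were whole multiples of 1 read to within 0.01, so reads were recovered by dividing by that step; depth was 7.77 to 15.7 M reads per library. Intervals cover counting error only.

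Symbols and exons came from GENCODE M21 (GRCm38). Genes with at least 10 normalised counts in at least 4 libraries were tested with limma 3.58.1 (R 4.3.3) on log2(value + 1), which understates changes of low genes, with an intensity trend, 1 mean per group over all 16 libraries, two-sided, Benjamini-Hochberg adjustment over 6110 genes and a threshold of 0.05. The main test was limma because the deposited values are normalised. The scripts were tested on simulated data. Alternatives were pseudocounts of 0.5 and 5, no filter, a minimum of 50, quantile and TMM scaling, edgeR 4.0.16 and DESeq2 1.42.0 on the recovered reads, a replicate block, leaving out each library, and counting annotated genes outside the table as unchanged. Leaving out Tet2-deficient air replicates 3 and 4, leaving out WT air replicates 1 and 2, and a block within each genotype were added after seeing the data.

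Named genes were, per genotype comparison, the 8 (or fewer) genes of either direction that differed most, provided that they passed the threshold, had no overlap between groups and averaged 50 or more. Oxygen comparisons named up to 8 in each direction past the threshold, or the 3 smallest p where fewer than 3 passed, and the interaction likewise. The 5 genes highest per kb, a list of genes with known roles and up to 6 corepressor genes by p were also named. Genes, lists and rules were chosen with earlier results of these data known. Replicates are labelled biological; no batches are labelled. Same-numbered WT libraries of the 2 oxygen conditions deviated together from their group means (r of 0.332, 0.178, 0.162 and 0.331 for replicates 1 to 4), and the labels say that cells were divided; Tet2-deficient ones did not all (r of 0.322, −0.275, 0.042 and −0.006).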

Additional observations from a re-analysis of the deposited data

Results flagged for a closer look

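In 14 of 172 groups of 4 libraries (43 named Zfp genes), 1 library lay far from the other 3, its gap to the nearest, as a share of the group's range, exceeding Dixon's critical value. Chance flags about 1 in 20 groups. In Tet2-deficient air, Zfp382 had 21 normalised counts in replicate 3 (others 55.9 to 61.6), and Zfp110 had 944 in replicate 4 (others 1100 to 1128). In Tet2-deficient physioxia, Zfp110 had 1004 in replicate 4 (others 1167 to 1173), Zfp995 had 65.3 in replicate 4 (others 106 to 116), Zfp125 had 0 in replicate 4 (others 1.08 to 1.36) and Zfp106 had 2192 in replicate 1 (others 2635 to 2717). In WT physioxia, Zfp12 had 210 in replicate 4 (others 255 to 265), Zfp760 had 40.1 in replicate 4 (others 74.3 to 80.2), and Zfp809 had 101 in replicate 2 (others 107 to 108). In WT air, Zfp455 had 10.1 in replicate 2 (others 18.2 to 19.2), Zfp629 had 138 in replicate 2 (others 161 to 166), and Zfp472 had 1449 in replicate 1 (others 1522 to 1528). The high values were those of Zfp263 in WT air replicate 3, at 2283 (others 1900 to 1913), and of Zfp655 in WT air replicate 4, at 4739 (others 4076 to 4170).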

How the results depend on the processing

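Without Tet2-deficient air replicates 3 and 4 the count of Zfp genes differing between genotypes in air was 69, without WT air replicates 1 and 2 it was 78, and it was 59 when annotated genes outside the table were treated as unchanged, against 121. Over all tested genes the counts were 2760, 3324 and 2436, against 4858. Leaving out single libraries gave 102 to 126 Zfp genes in air and 94 to 113 in physioxia. For all tested genes it gave 4050 to 5274 in air and 3842 to 4306 in physioxia. Between WT physioxia and WT air the count of Zfp genes was 7 with DESeq2, 0 with annotated genes outside the table counted as unchanged, 0 without WT air replicates 1 and 2 and 1 to 7 when single libraries were left out (1 without WT air replicate 2, WT air replicate 4 or WT physioxia replicate 1, and 7 without WT physioxia replicate 4), against 3. Of all tested genes DESeq2 called 548, against 352 in the main fit. That count was 0 with annotated genes outside the table counted as unchanged or without WT air replicates 1 and 2. It was 128 to 554 when single libraries were left out. Between Tet2-deficient physioxia and Tet2-deficient air the count of Zfp genes was 3 without Tet2-deficient air replicates 3 and 4, against 0. Of all tested genes 152 were called in that fit, also against 0. The causes were not tested. Of 60 values of named Zfp genes past the threshold, 52 stayed past it in every fit that leaves out 1 library, 46 did so under every alternative, and 0 reversed.

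With the replicate number as a block, 118 Zfp genes were called in air, 103 in physioxia, 3 between WT physioxia and WT air, and 0 between Tet2-deficient physioxia and Tet2-deficient air and for the interaction. Of all tested genes 4822, 4203, 269, 1 and 0 were called, in the same order. A block within each genotype gave 4, 0 and 0 Zfp genes for the oxygen comparisons and the interaction. Of all tested genes it gave 462, 0 and 0. The call of Zfp57 in air was lost under the block, and no other named gene's call was.

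The table holds a selection of genes, so shares of called genes apply within it. Genes with few reads, such as Zfp97 and Zfp960, and genes with close copies are measured with less certainty. With 4 libraries per group, a difference that did not pass was not detectable at this spread rather than absent.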
